A study of Mus musculus with 22 samples.

Results

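Levels of 10 genes that mark tissue macrophages were followed in brown adipose tissue (BAT) of CPEB2-WT and CPEB2-KO mice. Of these, 4 are general macrophage genes, here called identity genes (Adgre1, Cd68, Csf1r and Lyz2). They are not all confined to macrophages, and Lyz2 encodes the lysozyme of myeloid cells. A further 2 mark resident macrophages (Mrc1 and Cd163), and 3 mark lipid-associated macrophages (Trem2, Gpnmb and Itgax). Spp1 encodes a secreted protein that lipid-associated macrophages make, and which cells made it here was not tested. The genes were taken by symbol from a named list, and all 10 were found among the 55487 gene identifiers of both count tables. All 10 passed the filter on low counts in both cohorts.

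Macrophages are the phagocytes of a tissue. In adipose tissue, resident macrophages sit along vessels and carry scavenger receptors such as the mannose receptor and CD163. Where adipocytes enlarge or die, macrophages that take up lipid appear around them, and these carry the lipid receptor TREM2 and the lysosomal glycoprotein GPNMB. Signals through the growth factor receptor CSF1R keep both kinds alive. In bulk tissue, fewer macrophages and less RNA per macrophage cannot be told apart.

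RNA of interscapular BAT was sequenced as 1 mRNA library per mouse from 22 mice of 6 groups, all labelled male. CPEB2, an RNA-binding protein that acts on translation, was deleted in the whole body, so macrophages of the KO mice lacked the gene as well, and WT mice were their C57BL/6 littermates on the same chow diet. The untreated groups were WT (n = 5) and KO (n = 5), aged 21 to 25 weeks. The study states that these mice were deprived of food for some hours before BAT was taken, which it does not state for the injected mice. The other 4 groups (n = 3 each) were WT or KO mice that had adeno-associated virus (AAV) for GFP or for PRDM16, a regulator of brown fat identity, injected into BAT at 16 weeks, 2e+10 vector genomes in 30 µl, and were collected 9 weeks later. They are called WT + GFP, WT + PRDM16, KO + GFP and KO + PRDM16, and the promoter that drove both vectors was not given in the sources used here. Injected and untreated mice were in separate tables, were fitted separately and were not tested against each other. Where values of both are set side by side, this is description only.

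Counts of a library summed to between 55320927 and 162721202. Levels are given as counts-per-million values (CPM) on TMM-scaled library sizes. Cpeb2 lay at 4.33 to 5.55 CPM in the 6 injected KO mice and at 10.5 to 14.0 CPM in the 6 injected WT mice. In the untreated cohort it lay at 7.69 to 14.3 CPM in WT and at 2.10 to 5.78 CPM in KO mice 2 to 5, while the library labelled KO mouse 1 had 11.7 CPM, inside the WT range. Transcripts of 4 genes on the Y chromosome (Uty, Kdm5d, Ddx3y, Eif2s3y) summed to at most 1.15 CPM in 6 of the 10 untreated libraries, which goes against the male label. These were WT mice 3 and 5 and KO mice 1, 3, 4 and 5, and Xist lay at 103 to 253 CPM in them. WT mouse 4 held both kinds of transcript. The libraries without Y-linked transcripts were thus 2 of 5 in WT and 4 of 5 in KO, so that the untreated KO against WT values carry this difference as well. All 12 injected libraries fitted their labels in these respects. Brown fat genes (Ucp1, Cidea, Dio2, Ppargc1a, Cox8b, Adrb3 and Elovl3) summed to 2831 to 11357 CPM, so each library held RNA of brown fat. Prdm16 lay at 122, 119 and 45.9 CPM in WT + PRDM16 mice 1 to 3 and at 69.2, 128 and 73.6 CPM in KO + PRDM16 mice 1 to 3. With AAV-GFP it lay at 23.9 to 40.2 CPM, so WT + PRDM16 mouse 3 was only a little above that range.

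The promoters of the 10 genes were also searched for 3 short motifs. RefSeq promoters of GRCm38.p6, from 250 bases before to 50 after the start, were at hand for 8 of the 10 genes. These 8 genes had 9 promoters. Matches among them are counted by gene, whereas the shares over all are by promoter. GAGGAAG, the core bound by the macrophage factor PU.1, was found on either strand in 3 of these 8 genes and in 13.6% of all 32851 promoters. TGAGTCA, the AP-1 motif, was found in 3 of the 8 genes and in 5.2% of all promoters, and TCACGTGA, the core of the lysosomal CLEAR element, in 0 of the 8 and in 0.974% of all. One window of 30 bases is given per gene to show where the letters lie, 5′ to 3′ on the gene's strand with the motif or its complement in capitals. A match describes the letters and not a bound site.
Mrc1, chr2:14229367-14229396, + strand, PU.1 core: aaaagggacagCTTCCTCtgtcctcctttt
Trem2, chr17:48346349-48346378, + strand, PU.1 core: agcctcctttcCTTCCTCcctccctcacgc
Spp1, chr5:104434987-104435016, + strand, PU.1 core: caaaaccagagGAGGAAGtgtaggagcagg
Gpnmb, chr6:49036515-49036544, + strand, AP-1: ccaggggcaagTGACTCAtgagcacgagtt
Itgax, chr7:128129483-128129512, + strand, AP-1: cccacctcctcTGAGTCAcgctgacaactt
Cd68, chr11:69666176-69666205, - strand, AP-1: gctgaggtgtcTGAGTCAggtttggggtgg

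The first question was whether untreated KO BAT held more or less macrophage RNA than WT BAT. The data gave 3 libraries with high levels, WT mouse 4 and KO mice 1 and 2, which were the 3 highest of the 10 for 9 of the 10 genes. KO mouse 1 was the highest library for 8 of the 10. The groups overlapped for all 10 genes, and 0 of the 10 passed the test, whose adjusted p-values ran from 0.469 to 0.994.

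The identity genes come first. Adgre1 (chr17:57358691-57483527 of GRCm38, + strand), the adhesion receptor by which mouse macrophages are usually counted, had 2.19, 1.93, 3.11, 14.7 and 1.42 CPM in WT mice 1 to 5 and 20.4, 7.32, 1.83, 2.44 and 1.38 CPM in KO mice 1 to 5. WT mouse 4 and KO mice 1 and 2 stood above the rest. Cd68 (chr11:69664213-69666153, - strand), a lysosomal glycoprotein of phagocytes, had 1.60, 1.70, 4.27, 17.1 and 2.14 CPM in WT and 27.6, 14.7, 3.05, 2.16 and 6.11 CPM in KO mice. It had the lowest levels in WT mice 1 and 2. Lyz2 (chr10:117277331-117282321, - strand), the lysozyme of myeloid cells, had 20.6, 15.9, 43.2, 203 and 20.3 CPM in WT and 256, 149, 28.6, 26.8 and 43.7 CPM in KO mice. Lyz2 has a near-identical neighbour, Lyz1, and reads could have been split between the pair. Per kilobase of its principal transcript, Lyz2 had the highest level of the 4 identity genes in untreated WT BAT, 46.1 ± 61.2 CPM per kb against 4.35 ± 5.39 for Cd68, 2.41 ± 2.09 for Csf1r and 1.45 ± 1.75 for Adgre1 (SD, n = 5).

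Csf1r (chr18:61100598-61132149, + strand), the receptor for CSF1 and IL-34, had 5.88, 6.39, 9.88, 28.7 and 5.89 CPM in WT and 35.6, 28.0, 8.45, 7.80 and 14.0 CPM in KO mice 1 to 5. The gene overlaps Hmgxb3 on the other strand, and whether counting used strand was not stated. Its log2 fold change, KO over WT, was 0.72 ± 0.55 (SE), the lowest adjusted p of the 10 genes at 0.469.

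The resident genes are the scavenger receptors. Mrc1 (chr2:14229392-14332057, + strand), the mannose receptor, had 5.70, 7.25, 9.40, 21.6 and 7.14 CPM in WT and 23.5, 18.0, 3.13, 4.90 and 2.14 CPM in KO mice. KO mice held both its highest and its lowest levels, and the log2 fold change was 0.018 ± 0.63 (SE). Cd163 (chr6:124304656-124330527, + strand), the scavenger receptor for haemoglobin, had 4.87, 4.52, 6.18, 8.23 and 7.51 CPM in WT and 9.80, 13.3, 2.14, 7.59 and 2.18 CPM in KO mice. KO mice 3 and 5 lay below every WT mouse and KO mice 1 and 2 above every WT mouse, with a log2 fold change of 0.16 ± 0.47 (SE).

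The lipid-associated genes ranged more widely between libraries than the identity and resident genes. Trem2 (chr17:48346401-48354147, + strand), the lipid-sensing receptor that signals through TYROBP, had 0.175, 0.0248, 0.764, 5.55 and 0.355 CPM in WT and 8.10, 5.34, 0.323, 0.675 and 0.852 CPM in KO mice. Its lowest library, WT mouse 2, rested on 4 counts. Gpnmb (chr6:49036546-49070929, + strand) had 0.604, 0.472, 1.22, 52.7 and 0.613 CPM in WT and 97.1, 24.6, 1.07, 1.39 and 2.86 CPM in KO mice. The lowest of its 3 high libraries, KO mouse 2, was 8.59 times the highest of the other 7, the largest such gap of the 10 genes. Itgax (chr7:128129547-128150657, + strand), which encodes CD11c and is also carried by dendritic cells, had 0.403, 0.112, 1.48, 5.12 and 0.163 CPM in WT and 4.07, 5.71, 0.438, 0.635 and 0.514 CPM in KO mice.

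Spp1 (chr5:104435118-104441050, + strand), the gene of the matrix protein osteopontin, had 0.0876, 0.298, 25.7, 35.7 and 0.105 CPM in WT and 48.0, 3.91, 0.0807, 8.20 and 2.66 CPM in KO mice. It was the one gene that was also high in WT mouse 3 and not in the top 3 in KO mouse 2. Its group means did not differ beyond the spread, 12.4 ± 17.1 CPM in WT against 12.6 ± 20.0 CPM in KO mice (SD, n = 5 each).

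**Figure D1:**
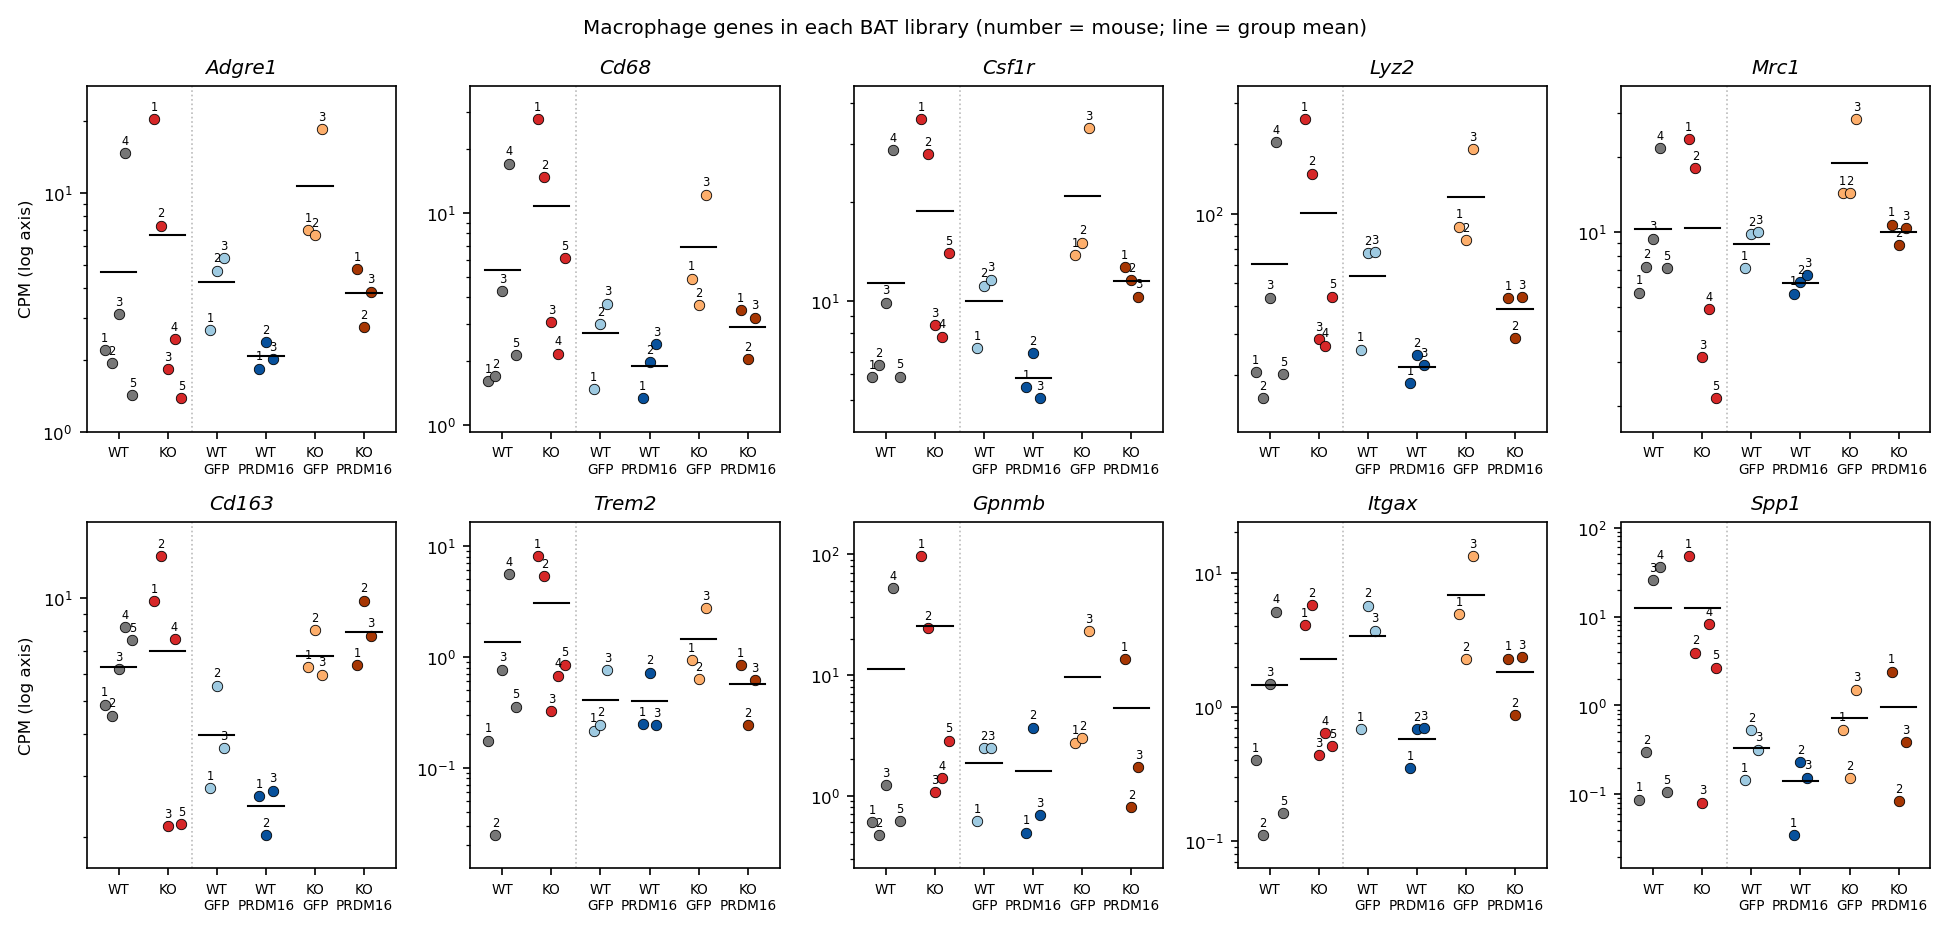
CPM of each of the 10 genes in the 22 BAT libraries (log axis), by group, with the mouse number above each point and the group mean as a line. WT mouse 4 and KO mice 1 and 2 stand above the other untreated libraries for 9 of the 10 genes, and KO + GFP mouse 3 is the highest injected library for 8 of the 10.

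Fitted over all 10 untreated libraries by edgeR's quasi-likelihood test with Benjamini-Hochberg adjustment over 17869 genes, the 10 log2 fold changes were all above 0, from 0.018 for Mrc1 to 1.19 for Gpnmb, with a median of 0.69 against 0.036 over all genes. Their standard errors ran from 0.47 to 1.54. None passed an adjusted p of 0.05, where 0% of all genes were called higher in KO, and 0 passed an unadjusted p of 0.05, where 4.99% of all genes did. DESeq2 called 0 of the 10 with a background of 0%, and for 0 of the 10 did the KO libraries lie wholly above the WT ones (0.492% of all genes). By the study's own rule for this cohort, at least 2-fold with an adjusted p of at most 0.5, 1 of the 10 was higher in KO (Cd68, 2.00-fold, adjusted p = 0.489 by edgeR), where 6.04% of all genes were.

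In a fit with a term for whether a library held Y-linked RNA, 0 of the 10 genes were called, and the log2 fold changes ran from -0.39 for Spp1 to 3.66 for Gpnmb. Leaving out a single mouse turned the direction of some genes. Without KO mouse 1 the log2 fold change became -0.53 for Adgre1, -0.58 for Gpnmb and -1.74 for Spp1. With WT mouse 4 and KO mouse 1 left out together, a choice made after seeing the data, 0 of the 10 were called, and the values were 3.38 for Gpnmb, 2.48 for Trem2 and -0.057 for Mrc1. The 8 mature muscle genes of a marker list (Myh4, Acta1, Atp2a1 and others) summed to 5230.4 CPM in KO mouse 1 and 6057 CPM in KO mouse 2. They summed to 13.4 CPM in WT mouse 4 and to 3001 CPM in WT mouse 3. Of the 3 libraries with high macrophage genes, WT mouse 4 thus had little muscle RNA. The study proposes that muscle-related transcripts rise in KO BAT because Prdm16 translation falls. Whether these transcripts came from muscle tissue or from brown adipocytes was not tested, nor was their part in the differences between the untreated groups.

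The injected mice gave the second question, whether macrophage genes differed between KO and WT BAT under AAV-GFP and under AAV-PRDM16. For all 10 genes the lowest of the 4 group means was that of WT + PRDM16. The highest was that of KO + GFP for 8 of the 10, and that of KO + PRDM16 for Cd163 and Spp1. KO + GFP mouse 3 was the highest of the 12 libraries for the same 8.

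Among the identity genes, Adgre1 had 2.67, 4.74 and 5.34 CPM in WT + GFP mice 1 to 3 and 7.02, 6.68 and 18.5 CPM in KO + GFP mice 1 to 3. The same gene had 1.84, 2.37 and 2.01 CPM in WT + PRDM16 and 4.80, 2.75 and 3.86 CPM in KO + PRDM16 mice. Within either virus the KO and WT mice did not overlap. Csf1r had 7.20, 11.1 and 11.6 CPM in WT + GFP, 13.8, 15.0 and 33.5 CPM in KO + GFP, 5.47, 6.94 and 5.07 CPM in WT + PRDM16 and 12.7, 11.6 and 10.3 CPM in KO + PRDM16 mice. It too did not overlap between genotypes within a virus, whereas WT + GFP and KO + PRDM16 mice did overlap.

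Lyz2 had 25.8, 67.5 and 68.2 CPM in WT + GFP, 87.8, 76.6 and 189.8 CPM in KO + GFP, 18.4, 24.4 and 22.1 CPM in WT + PRDM16 and 43.1, 29.0 and 43.5 CPM in KO + PRDM16 mice. Its genotypes stood apart within each virus. Cd68 had 1.47, 2.98 and 3.72 CPM in WT + GFP, 4.90, 3.66 and 12.2 CPM in KO + GFP, 1.33, 1.98 and 2.40 CPM in WT + PRDM16 and 3.47, 2.04 and 3.21 CPM in KO + PRDM16 mice, and overlapped between genotypes under both viruses.

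Of the resident genes, Mrc1 had 7.13, 9.77 and 9.98 CPM in WT + GFP, 14.3, 14.3 and 28.3 CPM in KO + GFP, 5.64, 6.29 and 6.70 CPM in WT + PRDM16 and 10.7, 8.84 and 10.4 CPM in KO + PRDM16 mice. Cd163 had 2.77, 5.54 and 3.62 CPM in WT + GFP, 6.27, 8.04 and 5.97 CPM in KO + GFP, 2.63, 2.02 and 2.73 CPM in WT + PRDM16 and 6.34, 9.81 and 7.75 CPM in KO + PRDM16 mice. All 6 KO mice lay above all 6 WT mice for Cd163. It was also the gene for which KO + GFP mouse 3 was not high: that library had the lowest Cd163 of the 6 KO mice.

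Of the lipid-associated genes, Trem2 had 0.215, 0.244 and 0.754 CPM in WT + GFP, 0.939, 0.628 and 2.76 CPM in KO + GFP, 0.246, 0.719 and 0.241 CPM in WT + PRDM16 and 0.843, 0.241 and 0.618 CPM in KO + PRDM16 mice. Gpnmb had 0.610, 2.48 and 2.48 CPM in WT + GFP, 2.74, 3.01 and 23.0 CPM in KO + GFP, 0.491, 3.66 and 0.684 CPM in WT + PRDM16 and 13.6, 0.805 and 1.72 CPM in KO + PRDM16 mice. In both KO groups 1 mouse carried most of the Gpnmb RNA. Itgax had 0.681, 5.68 and 3.71 CPM in WT + GFP, 4.93, 2.27 and 13.3 CPM in KO + GFP, 0.351, 0.686 and 0.694 CPM in WT + PRDM16 and 2.29, 0.870 and 2.34 CPM in KO + PRDM16 mice. Under AAV-GFP its genotypes overlapped, and under AAV-PRDM16 they did not. Spp1 was low throughout, with 0.143, 0.529 and 0.320 CPM in WT + GFP, 0.536, 0.153 and 1.50 CPM in KO + GFP, 0.0351, 0.232 and 0.154 CPM in WT + PRDM16 and 2.40, 0.0833 and 0.384 CPM in KO + PRDM16 mice, down to 3 counts in a library.

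Under AAV-GFP the 10 log2 fold changes, KO over WT, were all above 0, from 0.76 for Cd163 to 2.37 for Gpnmb, with a median of 1.14 against 0.010 over all 18899 genes tested. None of the 10 passed an adjusted p of 0.05 in the edgeR fit of all 12 libraries, where 0.00529% of all genes were called higher in KO. At an unadjusted p of 0.05, 7 passed (background 4.98%), 3 were called by DESeq2 (Adgre1, Csf1r and Mrc1, background 0.842%), and for 6 the KO mice lay wholly above the WT mice (background 6.51%). Mrc1 had the lowest adjusted p, 0.182 by edgeR, at a log2 fold change of 1.08 ± 0.24 (SE). Without KO + GFP mouse 3 the value for Mrc1 was 0.67, and those of the other 9 lay between 0.023 for Spp1 and 0.94 for Trem2.

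Under AAV-PRDM16 the 10 values were again above 0, from 0.49 for Trem2 to 2.76 for Spp1, with a median of 0.93 against 0.010 over all genes. None passed an adjusted p of 0.05 by edgeR (background 0.0423%). Cd163 came nearest, with a log2 fold change of 1.69 ± 0.26 (SE) and an adjusted p of 0.0503, and it was past the threshold in 7 of the 18 alternative fits, DESeq2 and limma-voom among them. At an unadjusted p of 0.05, 7 passed (background 6.92%), 2 were called by DESeq2 (Cd163 and Csf1r, background 1.83%), and for 6 the KO mice lay wholly above the WT mice (background 11.5%). The values of Gpnmb and Spp1 rested on KO + PRDM16 mouse 1, without which they were -0.37 and 0.68.

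Over both viruses, 3 of the 10 genes rose in KO BAT at an adjusted p of 0.05, where 1.06% of all genes did. They were Cd163, with a log2 fold change of 1.23 ± 0.18 (SE) and an adjusted p of 0.0095 by edgeR, Csf1r, with 1.02 ± 0.21 (SE) and 0.0349, and Mrc1, with 0.88 ± 0.17 (SE) and 0.0264. Both resident genes were thus among the called ones, and 0 of the 3 lipid-associated genes were. The lipid-associated genes had values as large with wider errors, 1.16 ± 0.50 (SE) for Trem2 (adjusted p = 0.244 by edgeR), 2.05 ± 0.81 (SE) for Gpnmb (0.2) and 1.34 ± 0.52 (SE) for Itgax (0.191). Without KO + GFP mouse 3 the values were 0.71 for Trem2, 0.87 for Itgax, 1.18 for Gpnmb and 0.62 for Cd68 (0.98 with it), and without KO + PRDM16 mouse 1 they were 0.997 for Gpnmb and 0.91 for Spp1 (1.95 with it). A call in one kind of gene and not in the other is no test of a difference between them, and none was made. Adgre1, Cd68, Lyz2, Trem2, Gpnmb, Itgax and Spp1 belong to a gene cluster that the study formed from these same libraries, so their shared direction is not independent evidence.

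All 10 passed an unadjusted p of 0.05 in the same comparison (background 9.54%), DESeq2 called 6, all of the identity and resident genes (background 5.23%), and for 1, Cd163, all 6 KO mice lay above all 6 WT mice (background 1.13%). The call for Cd163 held in all 17 alternative fits, with adjusted p-values between 3.19e-08 and 0.0369, and with each of the 12 libraries left out. Csf1r held its call in 3 and Mrc1 in 5 of the 12 fits that left out a library. The number of the 10 called was 1 without WT + GFP mouse 2 or 3, without any of the WT + PRDM16 mice, and without KO + PRDM16 mouse 1 or 3, and 4 without KO + GFP mouse 1.

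**Figure D2:**
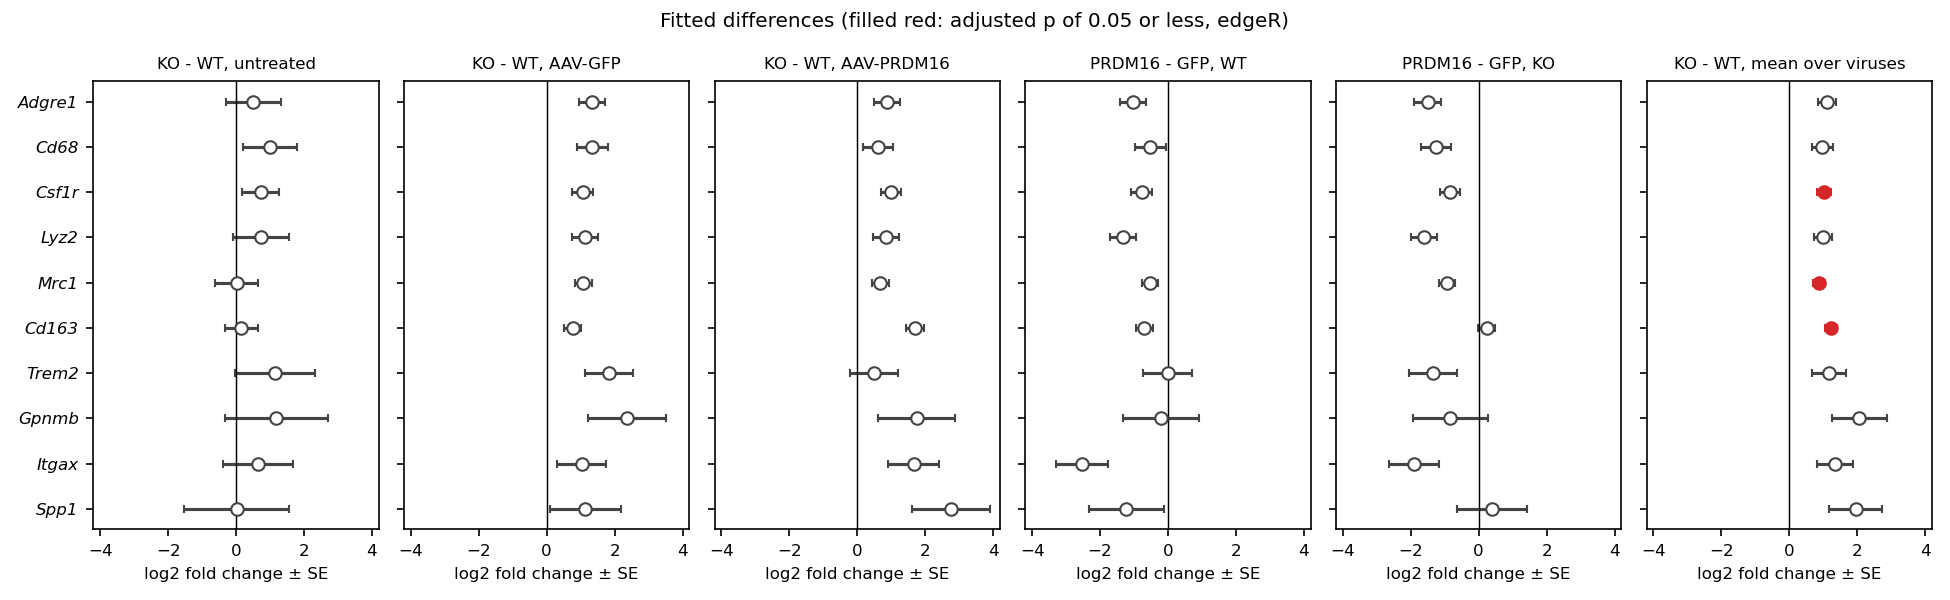
Log2 fold change of each of the 10 genes with its standard error (horizontal bar) in 6 comparisons, filled red where the edgeR adjusted p was 0.05 or less. Filled points appear for Csf1r, Mrc1 and Cd163 in the mean KO difference over both viruses, and the untreated comparison has the widest bars.

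The third question was whether AAV-PRDM16 moved these genes relative to AAV-GFP. No injected mouse went without a vector, so lower values with AAV-PRDM16 and higher values with AAV-GFP cannot be told apart. In WT mice the 10 log2 fold changes were all below 0, from -2.54 for Itgax to -0.012 for Trem2, with a median of -0.74 against -0.012 over all genes. None passed an adjusted p of 0.05 by edgeR (background 0%). At an unadjusted p of 0.05, 6 passed (background 5.19%), 1 was called by DESeq2 (Lyz2, background 0.77%), and for 5 the PRDM16 mice lay wholly below the GFP mice (background 7.76%). In KO mice 8 of the 10 were below 0, from -1.91 for Itgax, and Cd163 and Spp1 were above 0 at 0.24 ± 0.25 (SE) and 0.39 ± 1.03 (SE). None of the 10 passed an adjusted p of 0.05 (background 0%), 6 passed an unadjusted p of 0.05 (background 5.1%), DESeq2 called 3 (Adgre1, Lyz2 and Mrc1, background 1.33%), and 5 did not overlap (background 6.05%). The KO + GFP mice are the same in this comparison and in that of KO with WT under AAV-GFP. Without KO + GFP mouse 3 the values became -1.10 for Lyz2, -0.32 for Csf1r and 0.90 for Gpnmb.

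Averaged over genotypes, all 10 values were below 0 with a median of -0.77 against -0.0067 over all genes. None passed an adjusted p of 0.05 by edgeR (background 0.037%), and Lyz2 came nearest at -1.47 ± 0.27 (SE) with an adjusted p of 0.0527. At an unadjusted p of 0.05, 6 passed (background 7.02%), DESeq2 called 5 (Adgre1, Csf1r, Lyz2, Mrc1 and Itgax, background 2.97%), and for 0 did all 6 PRDM16 mice lie below all 6 GFP mice (background 0.487%). Cd163 had a value of -0.23 ± 0.18 (SE). The number called by edgeR was 4 without WT + GFP mouse 1 and 3 without KO + GFP mouse 1.

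The interaction of genotype and virus asks whether the virus difference was unlike in KO and WT mice. None of the 10 passed an adjusted p of 0.05 by edgeR (background 0%) or by DESeq2 (background 0.0053%), and 1, Cd163, passed an unadjusted p of 0.05 (background 3.19%). The Cd163 difference between viruses was -0.69 ± 0.26 (SE) in WT and 0.24 ± 0.25 (SE) in KO mice, an interaction of 0.93 ± 0.36 (SE) with an adjusted p of 1. For the other 9 genes the interaction lay between -1.34 for Trem2 and 1.61 for Spp1, with standard errors up to 1.57.

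Resident and lipid-associated genes were then set against each other within each library, as the mean log2 CPM of Trem2, Gpnmb and Itgax minus that of Mrc1 and Cd163. In WT mice 1 to 5 this was -3.83, -5.33, -2.75, -0.22 and -4.38, and in KO mice 1 to 5 it was -0.041, -0.77, -2.23, -2.83 and -0.98. WT mouse 4 and KO mice 1, 2 and 5 thus had the lipid-associated genes nearest to the resident ones, and in KO mouse 5 Mrc1 and Cd163 were low while Trem2, Gpnmb and Itgax were not high. The group means were -3.30 ± 1.96 in WT and -1.37 ± 1.13 in KO mice (SD, n = 5 each), a difference of 1.93 with a pooled SD of 1.60. With WT mice 1 and 2 left out the difference was 1.08.

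In the injected cohort the same difference was -3.25, -2.25 and -1.64 in WT + GFP, -3.39, -1.53 and -3.08 in WT + PRDM16, -2.01, -2.70 and -0.46 in KO + GFP and -1.46, -4.02 and -2.71 in KO + PRDM16 mice. The 4 groups overlapped. KO minus WT was 0.66 under AAV-GFP (pooled SD 0.995) and -0.059 under AAV-PRDM16 (pooled SD 1.15), and without KO + GFP mouse 3 the former was 0.023. AAV-PRDM16 minus AAV-GFP was -1.004 in KO mice (pooled SD 1.217) and -0.289 in WT mice (pooled SD 0.909). Each of these differences was smaller than its pooled SD, and the KO value includes KO + GFP mouse 3. The mean level of the resident genes ran over 2.83 log2 units among the untreated and 1.86 among the injected libraries, and that of the lipid-associated genes over 6.69 and 4.69 units. These values describe the libraries and have no test, since the genes were chosen with earlier results known.

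**Figure D3:**
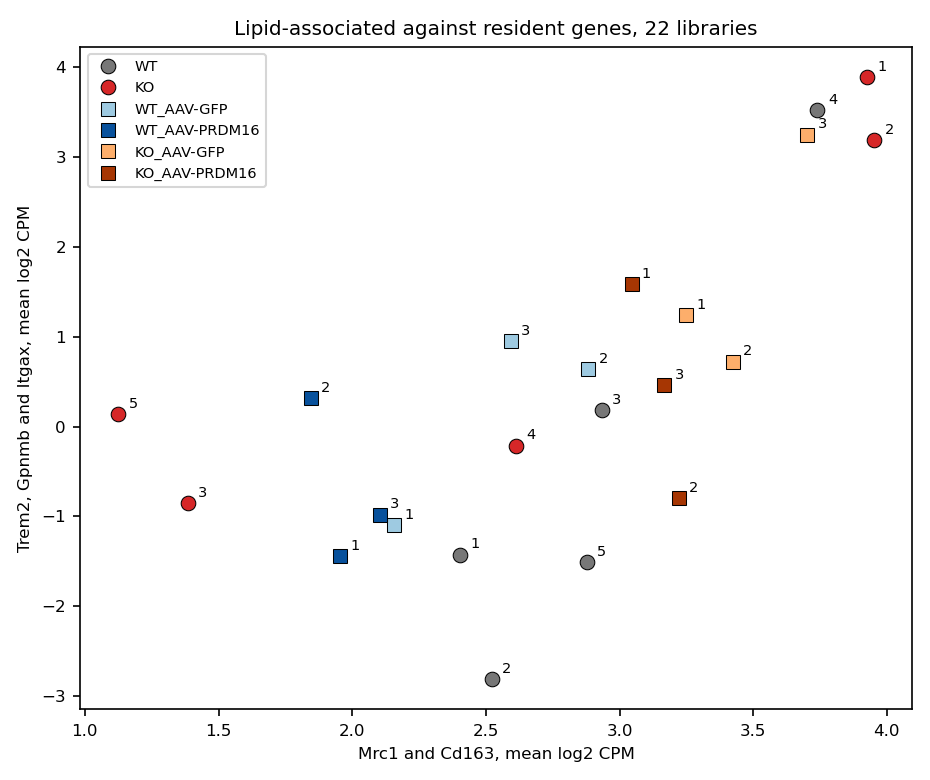
Mean log2 CPM of Trem2, Gpnmb and Itgax (vertical axis) against that of Mrc1 and Cd163 (horizontal axis) in the 22 libraries, coloured by group and numbered by mouse. WT mouse 4, KO mice 1 and 2 and KO + GFP mouse 3 lie together at the upper right, and the vertical spread is wider than the horizontal one in both cohorts.

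Further genes of the same roles were taken from lists that were also written with earlier results known. Of 19 other identity genes, 4 rose in KO BAT over both viruses, where 1.06% of all genes did: Itgam, an integrin of myeloid cells (1.70 ± 0.37), Cybb, a subunit of the phagocyte oxidase (1.19 ± 0.27), Fcgr3, an antibody receptor (1.01 ± 0.23), and C1qb, a chain of complement C1q (1.14 ± 0.27), with edgeR adjusted p-values from 0.0379 to 0.0497. All 19 were above 0, with a median of 0.93 against 0.010 over all genes. The number called fell to 1 without KO + GFP mouse 3, to 0 without any 1 of the WT mice, KO + GFP mouse 2 or any 1 of the KO + PRDM16 mice, and reached 6 without KO + GFP mouse 1.

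Of 12 other resident genes, 1 rose in KO BAT over both viruses (background 1.06%), F13a1, the coagulation factor XIII subunit carried by resident macrophages (0.81 ± 0.16, edgeR adjusted p = 0.0307). Of the 12, 11 were above 0, with a median of 0.65, among them Stab1, a scavenger receptor, at 0.74 ± 0.19 (edgeR adjusted p = 0.0593) and Gas6, a bridge to dying cells, at 0.60 ± 0.17 (0.0825). F13a1 held its call in 4 of the 12 fits that left out a library, and the number of these genes called ranged from 0 to 2.

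Of 15 other lipid-associated genes, 0 were called in either direction (background 1.06% upward), 5 passed an unadjusted p of 0.05 upward (background 9.54%) and 1 downward, and the median was 0.54. The 3 with the highest level are lysosomal or lipid-transport genes that adipocytes also use, and had log2 fold changes of -0.052 ± 0.10 for Ctsd, -0.051 ± 0.11 for Ctsb and 0.54 ± 0.26 for Apoe. None of these 3 was among the 5 that passed upward, so they do not stand for the whole list. Of 12 ligands, adaptors and partners, 0 were called (background 1.06%) and 7 passed an unadjusted p of 0.05 upward (background 9.54%), with a median of 0.61. The 3 with the highest level were Itgav, a receptor chain for osteopontin, at 0.15 ± 0.073, Csf1, the ligand of CSF1R, at 0.41 ± 0.15, and Itgb2, the partner chain of CD11c, at 0.91 ± 0.38.

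In the untreated cohort 0 genes of these 4 lists were called (background 0% upward). The median log2 fold change, KO over WT, was 0.76 for the other identity genes, 0.49 for the other resident genes, 0.57 for the other lipid-associated genes and 0.77 for the ligands and partners, against 0.036 over all genes. For AAV-PRDM16 against AAV-GFP over both genotypes, 0 genes of the 4 lists were called (background 0.037% downward). There, 14 of the 19 other identity genes passed an unadjusted p of 0.05 downward (background 7.02%) with a median of -1.22. Of the 12 other resident genes 2 did, with a median of -0.19, and the difference between the lists was not tested. The 3 other resident genes with the highest level had 0.12 ± 0.17 for Gas6, -0.29 ± 0.19 for Stab1 and -0.10 ± 0.16 for F13a1. None of these 3 was among the 2 that passed, so they do not stand for the whole list. Of the resident genes followed above, Mrc1 had -0.73 ± 0.17 and Cd163 -0.23 ± 0.18 in the same comparison.

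**Figure D4:**
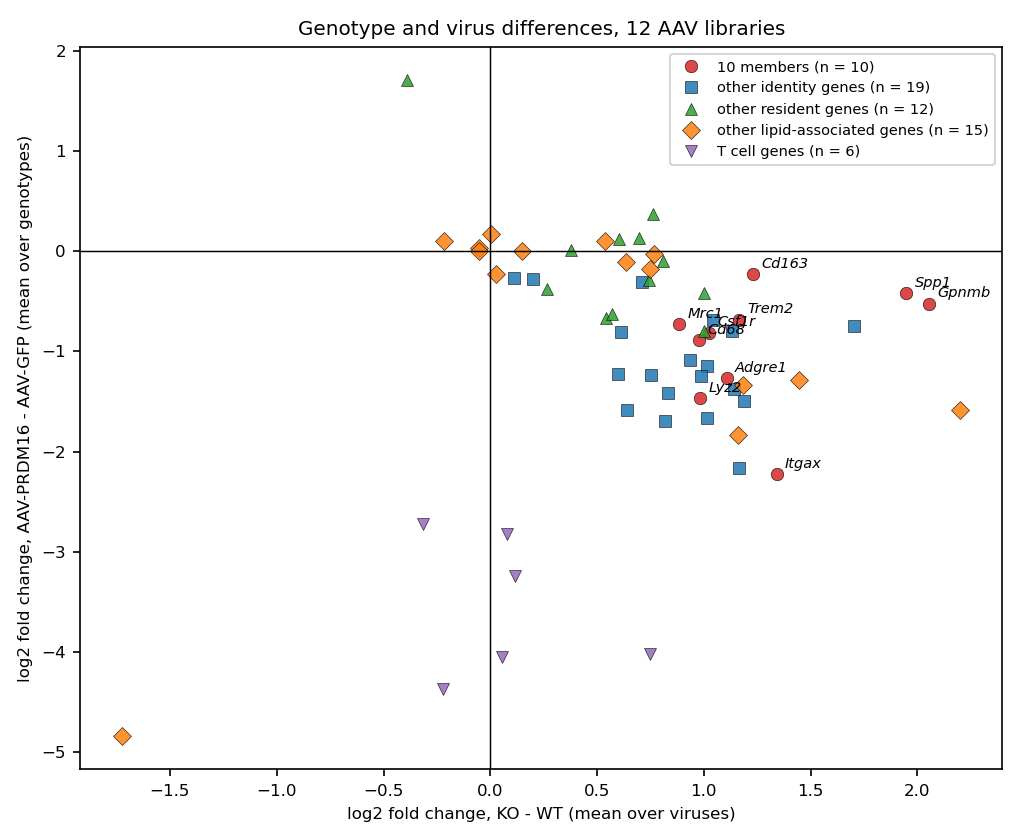
Log2 fold change of KO over WT averaged over viruses (horizontal axis) and of AAV-PRDM16 over AAV-GFP averaged over genotypes (vertical axis) for the 10 genes (named), 3 further macrophage lists and 6 T cell genes. The 10 genes all lie right of 0 and below 0, with Cd163 nearest to no virus difference, and the T cell genes lie lower still around a KO difference of 0.

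Genes of other immune cells moved with some of these values. The 6 T cell genes (Cd3d, Cd3e, Cd3g, Cd4, Cd8a and Cd8b1) summed to 1.27, 15.6 and 8.63 CPM in WT + GFP mice 1 to 3 and to 6.02, 6.61 and 22.9 CPM in KO + GFP mice 1 to 3. With AAV-PRDM16 the sum was at most 1.32 CPM in the 6 mice. In the 10 untreated mice, a separate cohort, it was 0.727 to 2.88 CPM. KO + GFP mouse 3, the highest library for 8 of the 10 genes, also had the highest T cell sum of the 22 libraries. All 6 T cell genes passed an unadjusted p of 0.05 downward with AAV-PRDM16 over both genotypes (background 7.02%, 0 at an adjusted p of 0.05 by edgeR), with a median log2 fold change of -3.63. For KO against WT over both viruses 0 of the 6 passed an unadjusted p of 0.05 (background 9.54% upward), with a median of 0.066.

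Monocyte genes (Ly6c2, Ccr2, Plac8 and F10 tested) and dendritic cell genes (Flt3, Zbtb46, Xcr1, Clec9a, Cd209a and Ccr7) had medians of -1.78 and -1.99 for AAV-PRDM16 against AAV-GFP over both genotypes, with 4 of 4 and 5 of 6 past an unadjusted p of 0.05 downward (background 7.02%). For KO against WT over both viruses they had medians of 0.95 and 0.68, with 2 of 4 and 1 of 6 past that threshold upward (background 9.54%). Monocyte genes summed to 1.85 to 2.74 CPM in WT + PRDM16, to 3.65 to 4.91 CPM in KO + PRDM16, to 3.26 to 13.6 CPM in WT + GFP and to 8.28 to 21.9 CPM in KO + GFP mice, and the genotypes overlapped under AAV-GFP. Neutrophil genes stayed low in the injected cohort, at most 2.78 CPM in a library, with Ly6g at 0 in all 12. In the untreated cohort neutrophil genes summed to 0.543 to 17.4 CPM. Monocyte genes there summed to 11.4 CPM in WT mouse 4, 10.9 CPM in KO mouse 1 and 10.6 CPM in KO mouse 2. The other untreated mice had at most 6.77 CPM of monocyte genes. Endothelial genes (Pecam1, Cdh5, Kdr, Tek and Prox1) had a median of 0.36 for KO over WT over both viruses, with 3 of 5 past an unadjusted p of 0.05 upward (background 9.54%). The part of these cells in the differences of Itgax, Lyz2 and the other genes was not tested.

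The genes most like Trem2 and Mrc1 were sought among 17197 other genes as the Pearson correlation of log2 CPM, centred on each group's mean, over the 22 libraries. For Trem2 they included Myc (0.94), Lgals3 (0.94), Bgn (0.94) and Tns3 (0.93), and for Mrc1 they were Tlr8 (0.97), Apobec1 (0.96), Apaf1 (0.95), Rassf4 (0.95) and Abcg3 (0.95). Of the other 9 genes followed here, Lyz2 was the most like Trem2 (0.92) and Adgre1 the most like Mrc1 (0.93). Trem2 was least like Cd163 (0.50), and the resident genes Mrc1 and Cd163 had 0.77 with each other. The points share their libraries, so these values are a description without a p. Trem2 lay at 5.34 to 8.10 CPM in WT mouse 4 and KO mice 1 and 2, and at most at 0.852 CPM in the other untreated mice. A few libraries thus weigh heavily in these correlations.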

How the data were processed

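The authors deposited, per cohort, a table of whole-number read counts per Ensembl gene, with 1 column per mouse and no normalization. The submitters' processing notes name bcl2fastq 2.20, Trimmomatic 0.36, HISAT2 and GRCm38.p6. The counting tool, annotation release and use of strand and duplicates are not given in the sources used here, so overlapping genes and paralogs are uncertain. All 22 columns were mapped to samples by the labels.

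Symbols and positions came from GENCODE M21 (55141 identifiers matched). Each cohort was fitted separately with edgeR 4.0.16 in R 4.3.3 (filterByExpr, TMM scaling, quasi-likelihood F-test, two-sided, Benjamini-Hochberg adjustment over the genes that passed, 17869 for the untreated table and 18899 for the injected one, called at 0.05). CPM were computed from TMM-scaled library sizes, and log2 CPM with a prior count of 2. CPM per kilobase used the principal transcript. The script was tested on simulated counts. The members, lists and tests were chosen with earlier results of these data known. The text names the 10 members, the genes of other lists that were called or else the 3 with the highest level, and the 5 genes most like Trem2 and Mrc1, of which 1 is not reported here. Other genes of these lists are named only to say what a list holds.

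The alternatives were DESeq2 1.42.0, limma-voom 3.58.1 with quality weights, RLE scaling, no filter, an adjusted p of 0.1, the 2-fold change with an adjusted p of 0.5 by which the study defined changed genes in the untreated cohort, the replicate number as a block, only the 2 groups compared, the untreated cohort without WT mice 1 and 2 or with Y-linked transcripts as a covariate, other prior counts, and each library left out. Leaving out WT mouse 4 and KO mouse 1 together was chosen after seeing the data. Each library was 1 mouse, and p-values measure the spread between mice. Libraries of a group differed by more than sampling noise. Trem2 and Spp1 rested on as few as 3 or 4 counts in a library.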

Additional observations from a re-analysis of the deposited data

Results flagged for a closer look

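In the untreated cohort 20 groups of 5 libraries were tested for a single library far from the others, and chance flags about 1 in 20 groups. Gpnmb in WT mouse 4 stood out, with 5.72 log2 CPM against 0.31 in the next highest WT mouse. The gap was 0.802 of the group's range, above the critical value of 0.71. The untreated KO group held no such gap for any of the 10 genes.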

How the results depend on the processing

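No alternative called any of the 10 genes in the untreated comparison apart from the study's own threshold, which gave 1. DESeq2 called more genes than edgeR in every injected comparison except the interaction, 3 for KO against WT under AAV-GFP, 2 under AAV-PRDM16 and 6 over both viruses, and 1 for the virus in WT, 3 in KO and 5 over both genotypes. Under AAV-PRDM16 the number of genes higher in KO was 2 with limma-voom and 1 with an adjusted p of 0.1, with RLE scaling or with no filter. For the virus over both genotypes it was 4 with an adjusted p of 0.1, 1 with RLE scaling and 1 with no filter, and for KO against WT over both viruses it was 5 with an adjusted p of 0.1. Leaving out 1 library gave 0 to 1 genes for KO against WT under AAV-PRDM16, 0 to 4 for the virus over both genotypes and 1 to 4 for KO against WT over both viruses, and 0 in the other comparisons. The cause was not tested. No share over all genes is given for the alternatives other than DESeq2 and the study's own rule. Their counts can therefore not be set against a background.

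Log2 fold changes turned in sign only in comparisons where edgeR called none of the 10 genes. In the untreated comparison limma-voom gave -0.12 for Adgre1, -0.035 for Lyz2, -0.77 for Mrc1 and -0.26 for Cd163. Without WT mice 1 and 2 the values were -0.26 for Mrc1, -0.011 for Cd163 and -0.72 for Spp1, without WT mouse 4 and KO mouse 1 they were -0.057 for Mrc1 and -0.82 for Spp1, and with Y-linked transcripts as a covariate Spp1 had -0.39. Elsewhere limma-voom gave -0.13 for Spp1 under AAV-GFP, 0.10 for Gpnmb with the virus in KO, 0.064 for Spp1 with the virus over both genotypes, and interactions of 0.015 for Adgre1, 0.32 for Csf1r, 0.011 for Lyz2 and 0.67 for Gpnmb.

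With 1 library left out, untreated values ran from -0.54 to 0.49 for Mrc1, -1.74 to 0.95 for Spp1, -0.53 to 1.63 for Adgre1, -0.58 to 5.14 for Gpnmb, -0.20 to 0.39 for Cd163 and -0.026 to 2.09 for Itgax. For the virus in WT they ran from -1.66 to 0.22 for Gpnmb and -0.73 to 0.80 for Trem2, in KO from -1.69 to 1.49 for Spp1 and -2.94 to 0.90 for Gpnmb, and over both genotypes from -1.58 to 0.34 for Gpnmb and -1.46 to 0.13 for Spp1. Gpnmb under AAV-PRDM16 ran from -0.37 to 3.19. The interaction ran from -0.29 to 0.46 for Csf1r, -0.54 to 0.22 for Lyz2, -2.73 to 1.11 for Gpnmb, -0.71 to 0.19 for Adgre1, -0.57 to 0.0055 for Mrc1 and -0.46 to 2.72 for Spp1.

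Mice with the same replicate number did not deviate together, with correlations from -0.29 to 0.11 over 5 untreated pairs and from -0.091 to 0.15 over 18 injected pairs, so the numbers were not read as a pairing. With the replicate number as a block 0 genes were called in 7 comparisons and 3 for KO against WT over both viruses, as without it. The block turned Mrc1 to -0.50 and Cd163 to -0.17 in the untreated comparison and Trem2 to 0.31 for the virus in WT. The differences of lipid-associated from resident genes moved by less than 1 SD under each alternative run. Common dispersion was 0.312 in the untreated and 0.0887 in the injected cohort, and with 3 mice per injected group and 3 or 4 counts of Spp1 or Trem2 in the lowest libraries, small differences were not detectable.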
